A study of Mus musculus with 11 samples.

Results

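The tight junction genes of lung tumors and paired normal lungs from Gprc5a-/- mice are described here. The members were chosen by symbol: every gene of the deposited transcript table whose name starts with Cldn or Tjp and a digit (32 claudins and 3 Tjp genes), and 12 genes named singly, Ocln, Marveld2, Marveld3, F11r, Jam2, Jam3, Cgn, Cgnl1, Pard3, Pard6b, Magi1 and Patj. That gave 47 of the 24515 genes in the table, with 88 of its 36285 transcript rows. Of these, 29 had enough counts to be tested and 18 did not.

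Tight junctions seal the space between neighboring epithelial or endothelial cells near their apical side. Claudins span the membrane and decide which ions and how much water pass between the cells: some form a barrier and others a channel. Occludin and its MARVEL-domain relatives and the junctional adhesion molecules share the site, scaffold proteins of the ZO (Tjp) and cingulin families tie the strands to actin, and the Par and Crumbs polarity complexes position them. In lung, Cldn18 is the claudin for which the alveolar epithelium is best known, Cldn3 and Cldn4 are further alveolar claudins, and Cldn5 is the main claudin of blood vessel endothelium.

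The libraries came from 5 mice, with 6 lung tumors and 5 pieces of normal lung next to them. All mice, the donors of the normal lungs included, were Gprc5a-/- and had received intraperitoneal NNK (nicotine-derived nitrosamine ketone, a tobacco carcinogen) at 50 mg/kg, 3 times a week for 8 weeks, so the comparison is between tumor and carcinogen-exposed lung of the same knockout. Gprc5a is a lung epithelial receptor gene with a tumor suppressor role. The sample titles tag 3 tumors as ADN (mice m335, m368 and m350) and 3 as ADC (mice m335, m372 and m378), and do not spell the tags out. Mouse m335 was taken 4 months after NNK, mouse m368 6 months and the other mice 7 months after it. Both tumors of mouse m335 share 1 normal lung. Each library is a piece of whole tissue, and no sorting of cells is described.

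Libraries held 19938822 (normal m372) to 46987587 counts (ADC m372). Gprc5a, the targeted gene, had 0 to 19 counts in each library, tumors and normal lungs alike. Markers of epithelium, such as Epcam and Krt8, rose in the tumors (8 of 10 pan-epithelial genes higher, none lower). Their summed level went from 937 to 1538 CPM in normal lungs to between 1946 and 4542 CPM in tumors. Keratins weighed heavily in that sum. In tumors, means were 638 CPM ± 536 (SD) for Krt7, 539 ± 151 for Krt8, 450 ± 259 for Krt18 and 447 ± 97.7 for Cdh1. Krt7 and Krt19 were not among the 8. Ratios to this sum below therefore follow keratin RNA in large part. Markers of endothelium fell, 15 of 17, from a sum of 3993 to 7019 CPM to a sum of 962 to 1605 CPM, and no gene of either list was at 0 in any library. The ADC tumor of mouse m335 stood apart: it had the lowest summed alveolar type 2 markers of the tumors (37972 CPM, against 110739 to 139424 in the other 5) and the highest summed B cell markers (463 CPM, against 48.2 to 119). CPM is counts scaled to a common library size after TMM, and values below follow the order of mice m335, m368, m350, m372 and m378 for normal lungs, m335, m368 and m350 for ADN and m335, m372 and m378 for ADC.

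The 5 promoters printed here, of 4 genes, show where the transcripts below begin. The Cldn18 pair is shown because the table splits that gene by first exon. Cldn2, Cldn4 and Cldn5 are shown because they have the widest changes in level of the claudins that passed the test in either direction, besides Cldn15. Each sequence runs 5′ to 3′ on the strand of the gene, from 250 bases before the annotated start to 20 bases from it on, from RefSeq (GRCm38.p6), which had a promoter for 36 of the 47 members. Their places are chr9:99710044-99710313 and chr9:99717248-99717517 (both minus strand), chrX:139800558-139800827 (plus), chr5:134946915-134947184 (minus) and chr16:18776597-18776866 (plus). Capitals mark the first 20 transcribed bases at the 3′ end and, before them, the motifs named below.
Cldn18 lung first exon (A1): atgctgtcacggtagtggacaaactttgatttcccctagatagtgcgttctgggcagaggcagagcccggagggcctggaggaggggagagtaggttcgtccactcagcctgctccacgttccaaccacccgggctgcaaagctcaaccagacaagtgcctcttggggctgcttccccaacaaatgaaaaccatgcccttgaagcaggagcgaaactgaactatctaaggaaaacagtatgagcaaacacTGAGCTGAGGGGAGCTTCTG
Cldn18 stomach first exon (A2): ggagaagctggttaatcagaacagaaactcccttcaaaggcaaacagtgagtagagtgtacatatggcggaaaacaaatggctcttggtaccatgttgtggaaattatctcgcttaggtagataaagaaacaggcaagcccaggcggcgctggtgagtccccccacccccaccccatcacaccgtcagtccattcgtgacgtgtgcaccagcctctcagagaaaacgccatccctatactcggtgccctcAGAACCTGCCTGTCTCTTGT
Cldn2: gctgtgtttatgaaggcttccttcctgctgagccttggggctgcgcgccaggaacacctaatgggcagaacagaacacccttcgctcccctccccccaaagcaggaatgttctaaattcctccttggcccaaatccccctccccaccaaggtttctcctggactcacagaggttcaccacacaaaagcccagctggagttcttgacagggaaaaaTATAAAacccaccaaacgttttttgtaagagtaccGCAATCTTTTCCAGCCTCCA
Cldn4: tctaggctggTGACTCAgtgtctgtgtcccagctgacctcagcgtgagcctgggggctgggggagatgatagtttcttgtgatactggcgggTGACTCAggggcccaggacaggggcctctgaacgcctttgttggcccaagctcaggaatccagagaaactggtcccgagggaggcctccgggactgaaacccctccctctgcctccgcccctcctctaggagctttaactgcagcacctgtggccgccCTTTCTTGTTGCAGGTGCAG
Cldn5: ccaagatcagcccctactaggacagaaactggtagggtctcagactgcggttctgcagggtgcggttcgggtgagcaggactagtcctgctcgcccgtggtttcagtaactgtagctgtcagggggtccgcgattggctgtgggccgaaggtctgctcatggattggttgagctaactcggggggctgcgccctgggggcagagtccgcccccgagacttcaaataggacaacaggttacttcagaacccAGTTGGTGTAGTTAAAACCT
In windows of this length 4 motifs were searched on both strands: the TATA box as TATAAA (in 12.9% of 32851 promoters), the AP-1 site as TGANTCA (7.23%), the ETS core as CCGGAA (13.7%) and the grainyhead-like site as AACCGGTT (0.128%). The ETS and grainyhead-like letters share a core, and no match below overlapped another. The table held 12 promoters for 8 of the 9 members that changed in tumors, and none for Marveld3, which was not searched. Of these 12 promoters, 1 held the TATA letters (Cldn2, 35 bases before the start), 3 held an AP-1 match, 2 an ETS match and 0 a grainyhead-like match. The AP-1 matches were in Cldn4 (240 and 158 bases before the start), in Cldn15 (214 bases before it) and in 1 of 3 Patj promoters (106 bases before it). The ETS matches were in both Cldn7 promoters. A match is a description of the letters only.

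Tumors and the normal lungs of the same mice were compared first, to ask which junction genes differ once a tumor has formed. Cldn2, Cldn3, Cldn4, Cldn7, Marveld3, Tjp3 and Patj rose in tumors, and Cldn5 and Cldn15 fell. The 7 genes that rose are part of 47 members and make up 24.1% of the 29 tested, against 3.45% of all 15764 genes tested that rose. The 2 that fell are 6.9% of those tested, against 7.66% of all genes, and 11.1% of all genes changed in either direction. The median log2 fold change was 0.37 over the tested members and -0.04 over all genes. Members are named for a call at an adjusted p under 0.05 (edgeR quasi-likelihood test with the mouse as a block, two-sided, Benjamini-Hochberg over all genes). The count of 9 was 4 without normal m350 or ADN m350 (the same mouse), 5 without normal m368, normal m372, ADN m368 or ADC m372, and 15 without ADC m335. Of all genes tested, 6.71% and 6.72% passed without normal m350 and ADN m350, and 21.1% without ADC m335. The fits that gave 5 members had 6.66% (without ADC m372) to 9.35% (without normal m368). Scaling by library totals moved the median of all genes from -0.04 to -0.23.

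**Figure D1:**
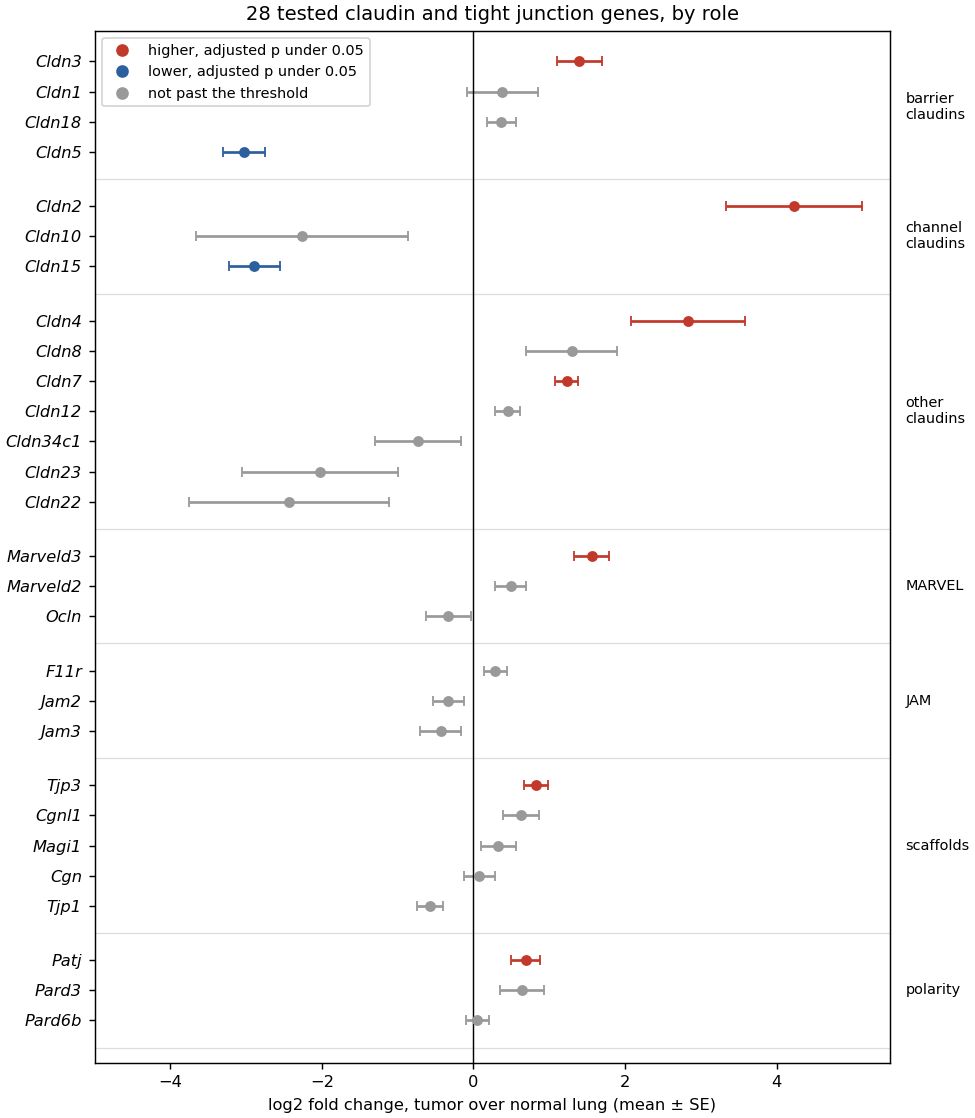
Log2 fold change of tumor over normal lung for 28 of the 29 tested genes, grouped by role (points, edgeR estimate; bars, SE; 6 tumors and 5 normal lungs; red higher, blue lower, gray not past the threshold). The 2 lowest called estimates are Cldn5 (-3.03) and Cldn15 (-2.89), and the highest are Cldn2 (4.23) and Cldn4 (2.83).

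Among the claudins known mainly as barrier formers, 4 of 7 were tested, and 1 rose (Cldn3) and 1 fell (Cldn5). Cldn5, which seals the endothelium of blood vessels, is a single-exon gene at chr16:18776847-18778262 (plus strand). Its level was 1150, 532, 865, 675 and 805 CPM in the normal lungs, 127, 113 and 142 CPM in the ADN tumors and 70, 94.2 and 61.6 CPM in the ADC tumors. Every tumor was below every normal lung, and the lowest normal lung (532 CPM) was well above the highest tumor (142 CPM). Tumors had a log2 fold change of -3.03 ± 0.28 (SE; adjusted p = 0.000778, edgeR), an 8.16-fold lower level, and the call held without any 1 library or mouse (adjusted p 0.000146 to 0.00606). In these pieces of whole tissue, fewer cells of a type and less RNA per cell cannot be told apart. Cldn5 fell by more than the sum of the endothelial markers: it equaled 9.96% to 16.9% of their summed CPM in normal lungs and 5.23% to 8.84% in tumors, a lower ratio than that of the paired lung in 6 of 6 tumors. Taken singly, the endothelial markers had log2 fold changes of -0.72 ± 0.20 (Emcn) to -2.71 ± 0.27 (Tek), with a median of -1.99. The part of the endothelial markers in the fall was not tested beyond the ratio to their sum.

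Cldn3, a barrier claudin of many epithelia, lies at chr5:134986214-134987476 (plus strand), near Cldn4 on the same chromosome. It measured 346, 170, 206, 180 and 312 CPM in normal lungs, 1119, 605 and 498 CPM in ADN and 369, 614 and 694 CPM in ADC. The groups did not overlap, though the lowest tumor, ADC m335 (369 CPM), was close to its own normal lung (346 CPM). This was a log2 fold change of 1.40 ± 0.30 (SE; adjusted p = 0.0184, edgeR). The call was lost without any 1 of the libraries of mice m368, m350, m372 and m378 (adjusted p 0.0571 to 0.0722), and the log2 fold change then lay between 1.30 and 1.46. Against the summed pan-epithelial markers, Cldn3 equaled 16.3% to 30.8% in normal lungs, against 13.3% to 35.7% in tumors, above the paired lung in 4 of 6 tumors. Of the bases in Cldn3 exons, 3.2% also lie in an antisense transcript.

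Cldn1 and Cldn18 did not pass the test. Cldn1, which seals the epidermis, had low levels of 6.8, 14.1, 5.29, 10.1 and 9.33 CPM in normal lungs, 12.8, 6.51 and 14.7 CPM in ADN and 28.4, 11.7 and 6.56 CPM in ADC, with a log2 fold change of 0.38 ± 0.47. ADC m335 had the highest value (28.4 CPM), while 2 of the other 5 tumors were below their own normal lung. Cldn18, the claudin of alveolar epithelium, was at 962, 811, 711, 805 and 765 CPM in normal lungs, 1004, 791 and 1095 CPM in ADN and 1176, 1231 and 1120 CPM in ADC. It was above the paired lung in 5 of 6 tumors, with a log2 fold change of 0.37 ± 0.19 (adjusted p = 0.250, edgeR) and a 95% interval of -0.05 to 0.80. Relative to the summed pan-epithelial markers it was lower in 6 of 6 tumors (17.4% to 57.5%) than in their own normal lungs (62.5% to 80.7%).

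The table has 4 rows for Cldn18, which lies at chr9:99690797-99717267 (minus strand). A pair of rows starts at the downstream first exon, known as the lung form A1, and a pair at the upstream one, known as the stomach form A2. Each pair has a long row (264 codons) and a short row (208 codons). All 4 share most of their exons, so the split of counts between them is an estimate made by the authors' quantification. The A1 rows held 801, 741, 580, 650 and 733 CPM in normal lungs, 931, 559 and 1049 CPM in ADN and 930, 1187 and 1031 CPM in ADC, so the lung form had most of the counts in every library. The A2 share of Cldn18 was 16.7%, 8.72%, 18.4%, 19.3% and 4.1% in normal lungs. It was 7.29%, 29.3% and 4.23% in ADN and 21%, 3.58% and 7.89% in ADC. ADN m368 and ADC m335 had the highest shares, and both groups spanned a wide range (13.4% ± 6.69, SD, n = 5, against 12.2% ± 10.5, SD, n = 6). Over 5 mice the share differed by -1.61 percentage points (SD 14.8; tumors minus own normal lung, the tumors of mouse m335 averaged), and it was higher in the tumors of 2 of 5 mice. The exact two-sided sign-flip permutation test gave p = 0.938, where 0.0625 is the smallest p that 5 mice allow.

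**Figure D2:**
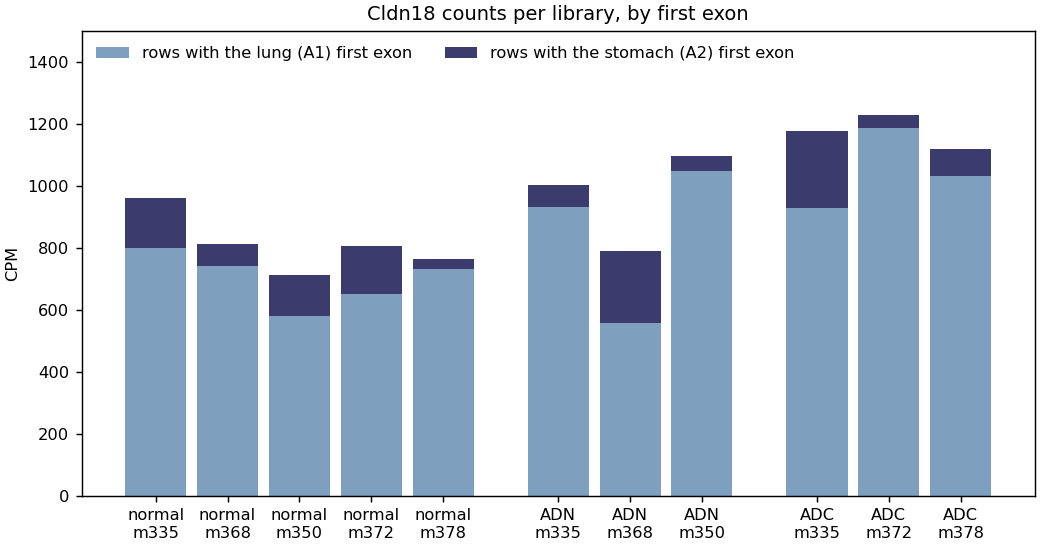
Cldn18 level in CPM per library (bars, 5 normal lungs, 3 ADN and 3 ADC tumors), split into transcript rows with the lung (A1) and the stomach (A2) first exon. The A2 part is largest in ADC m335 (247 CPM) and ADN m368 (232 CPM) and ranges from 31.3 to 160 CPM in normal lungs.

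Among the claudins known mainly as paracellular channels, 3 of 5 were tested, and Cldn2 rose while Cldn15 fell. Cldn2, a cation and water channel of leaky epithelia such as the kidney proximal tubule, lies at chrX:139800808-139811388 (plus strand). Its level was 1.28, 4.69, 1.36, 3.35 and 7.48 CPM in normal lungs and 63.6, 151 and 72.2 CPM in ADN. In ADC it was 2.02, 29.6 and 41.8 CPM. All 3 ADN tumors were far above every normal lung, the ADC tumors of mice m372 and m378 lay between, and ADC m335 stayed within the range of the normal lungs. Tumors together had a log2 fold change of 4.23 ± 0.90 (SE; adjusted p = 0.0177, edgeR), or 18.7-fold, above the paired lung in 6 of 6. The call was lost without normal m335, normal m368, normal m350, ADN m368 or ADN m350 (adjusted p 0.0619 to 0.0647), and the log2 fold change then lay between 3.86 and 4.07. Over all libraries and mice left out in turn it was 3.45 to 4.65, lowest without ADN m335, where the call held (adjusted p = 0.027). Relative to the summed pan-epithelial markers, Cldn2 went from 0.0829% to 0.739% in normal lungs to 0.0974% to 3.49% in tumors, and was above the paired lung in 6 of 6 tumors.

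Cldn15, a cation channel best known from the intestine, lies at chr5:136967869-136975845 (plus strand). It measured 24.9, 20.8, 14.3, 27.2 and 17.2 CPM in normal lungs, 2.04, 3.83 and 2.7 CPM in ADN and 1.18, 2.92 and 4.43 CPM in ADC. The groups did not overlap, and the highest tumor (4.43 CPM) was well below the lowest normal lung (14.3 CPM). The log2 fold change was -2.89 ± 0.34 (SE; adjusted p = 0.00124, edgeR), and the call held without any 1 library or mouse (adjusted p 0.000313 to 0.00801). Mesothelial markers fell as well, 6 of 7, and Wt1 was at 0 in at least 1 tumor. The list had a median log2 fold change of -2.78, and the 6 that fell had -1.80 (Msln) to -3.56 (Wt1). The summed level of the list overlapped between groups, at 292 to 586 CPM in normal lungs and 191 to 707 CPM in tumors. That sum includes Krt19, a keratin of other epithelia too and the gene of the list that did not fall. Krt19 had a mean of 160 CPM ± 38.3 (SD) in normal lungs and 288 CPM ± 196 in tumors. Msln, the next highest, had means of 72.7 and 29.9 CPM, so Krt19 was the largest part of the sum, more so in tumors. A sum without Krt19 was not used, so the ratio to it does not follow the markers that fell. Cldn15 equaled 4.24% to 6.6% of the sum with Krt19 in normal lungs and 0.45% to 2.32% in tumors. Against the endothelial sum it was above the paired lung in 1 of 6 tumors (0.21% to 0.68% in normal lungs, 0.122% to 0.376% in tumors). The part of these cell types in the result was not tested further.

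Cldn10, an ion channel claudin, was low and uneven, at 4.45, 4.41, 1.92, 15.1 and 5.34 CPM in normal lungs, 0.0334, 0 and 9.07 CPM in ADN and 2.39, 0.857 and 2.1 CPM in ADC. It was listed below its own normal lung in 5 of 6 tumors, and ADN m350 was the exception. The log2 fold change of -2.26 ± 1.40 did not pass the test (adjusted p = 0.355, edgeR). The highest normal lung (m372) and the highest tumor (ADN m350) also had the highest summed club cell markers of their groups, 23590 and 11789 CPM, against 2700 to 7698 and 806 to 2367 CPM in the others; the part of club cells was not tested. Nearly all Cldn10 counts, 1297 against 1 over all libraries, were given to rows with the downstream first exon.

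Of the other 20 claudins, 7 were tested, and Cldn4 and Cldn7 rose. Cldn4, which limits sodium passage in alveolar and kidney epithelium, lies at chr5:134945124-134946934 (minus strand). Its level was 4.9, 5.5, 1.92, 8.24 and 4.42 CPM in normal lungs, 21.8, 75.1 and 26.3 CPM in ADN and 126, 33.1 and 4.15 CPM in ADC. ADC m335 was the highest library and ADC m378 was below its own normal lung, so the spread within ADC covered the whole range of the tumors. Tumors had a log2 fold change of 2.83 ± 0.75 (SE; adjusted p = 0.0428, edgeR), above the paired lung in 5 of 6 tumors. It did not pass the threshold with library totals as scaling (adjusted p = 0.0555) or with no filter on low counts (0.0777). The same was true without normal m335, m368, m350 or m372, ADN m368, ADN m350 or ADC m372 (adjusted p 0.0888 to 0.14). Cldn4 equaled 0.205% to 0.744% of the pan-epithelial sum in normal lungs and 0.213% to 6.08% in tumors, above the paired lung in 5 of 6.

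Cldn7, a claudin of many epithelia that is also found along the sides of cells, lies at chr11:69964779-69967886 (plus strand). It measured 77.8, 40.5, 41.3, 47.4 and 58.6 CPM in normal lungs, 171, 104 and 97.9 CPM in ADN and 161, 132 and 120 CPM in ADC. Every tumor was above every normal lung, and the 6 tumors were closer to each other than for the other claudins that rose. This was a log2 fold change of 1.23 ± 0.15 (SE; adjusted p = 0.00155, edgeR), and the call held without any 1 library or mouse (adjusted p 0.000359 to 0.0106). Relative to the summed pan-epithelial markers it was 4.03% to 5.79% in normal lungs, against 2.28% to 7.77% in tumors, above the paired lung in 5 of 6. The upstream of its 2 first exons held 68.8% ± 9.21 (SD, n = 5) of its counts in normal lungs and 66.6% ± 8.3 (SD, n = 6) in tumors.

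The other 5 tested claudins of this group did not pass the test. Cldn12, a claudin without the usual scaffold-binding end, was 16.3, 25.8, 22.4, 20.4 and 24.1 CPM in normal lungs, 17.8, 32.4 and 29.1 CPM in ADN and 20.9, 35.3 and 36.1 CPM in ADC. It was above its paired lung in 6 of 6 tumors, by 0.45 ± 0.16 on the log2 scale (adjusted p = 0.105, edgeR), and of the alternatives run it passed without ADC m335 (0.0475) and with DESeq2 (0.0277). Cldn8 ranged from 0.526 to 3.89 CPM in normal lungs and from 1.35 to 11.6 CPM in tumors (log2 fold change 1.30 ± 0.60). Cldn23 ranged from 0.992 to 2.24 CPM and from 0.0356 to 3.27 CPM (-2.02 ± 1.03), with DESeq2 passing it (adjusted p = 0.0481). Cldn34c1 ranged from 1.96 to 3.03 CPM and from 0.635 to 3.77 CPM (-0.73 ± 0.57), and its counts may be shared with closely related Cldn34 genes. Cldn22 ranged from 0.371 to 1.05 CPM and from 0 to 0.635 CPM (-2.43 ± 1.32), but all of its exon lies in Wwc2 exons on the other strand, and the strand setting of the counting is not given in the sources used here.

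**Figure D3:**
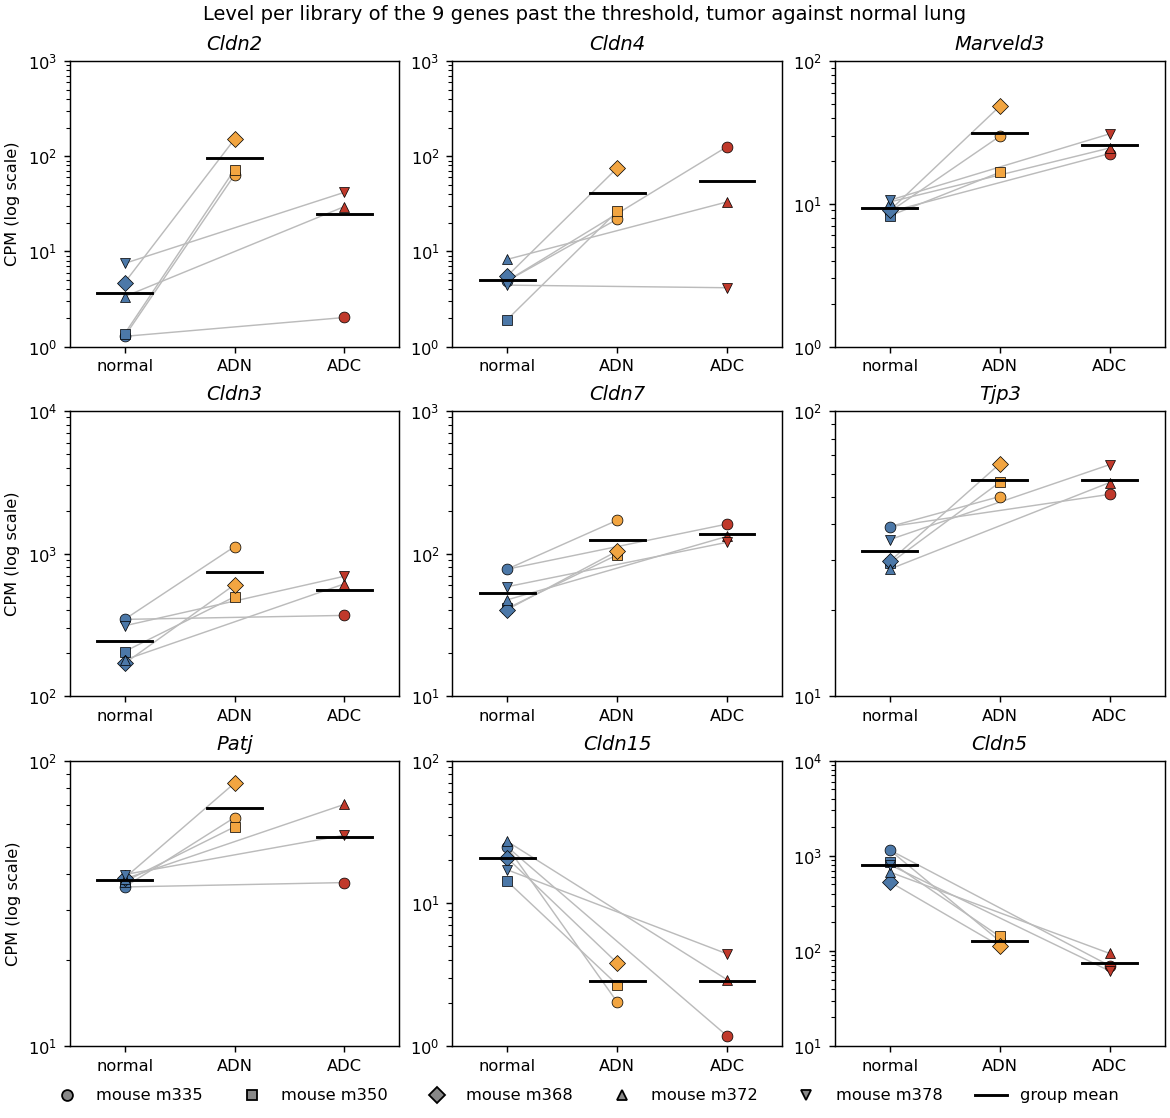
Level in CPM (log axis) of the 9 genes that passed the test, in 5 normal lungs (blue), 3 ADN (orange) and 3 ADC tumors (red); marker shapes are mice, gray lines join a tumor to its own normal lung, and black bars are group means. Cldn5 and Cldn15 are lower in every tumor, and Cldn2 is 63.6 to 151 CPM in ADN and 2.02 to 41.8 CPM in ADC.

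Summed over all 32 claudins, the level was 1637 to 2599 CPM in normal lungs and 1884 to 2548 CPM in tumors, so the totals overlapped. The shares of Cldn5, Cldn3, Cldn7 and Cldn15 did not. Cldn5, Cldn18 and Cldn3 together held 92.1% to 94.9% of claudin counts in normal lungs and 80.1% to 89.1% in tumors. The share of Cldn5 was 32.5% to 46.1% in normal lungs, against 2.93% to 7.12% in tumors. The share of Cldn3 was 9.99% to 15.5% and then 18.8% to 43.9%, and that of Cldn18 was 37% to 49.6% and then 39.4% to 59.9%. Cldn7 held 2.2% to 2.99% and then 4.92% to 8.2%, and Cldn15 held 0.762% to 1.51% and then 0.06% to 0.21%. Cldn2 and Cldn4, each at most 0.458% of the claudin counts of a normal lung, reached 7.99% (ADN m368) and 6.41% (ADC m335). Levels were also divided by kilobases of exon, to compare genes. The length was that of all bases in any transcript of a gene, so genes with several forms, such as Cldn18, can read low. On this scale the mean claudin level in normal lungs was highest for Cldn5 (569 CPM per kb). Next came Cldn3 (193) and Cldn18 (182), which were close to each other. In tumors, among claudins, the mean level was highest for Cldn3 (516 CPM per kb), then Cldn18 (240), Cldn7 (88.6) and Cldn5 (71.6).

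**Figure D4:**
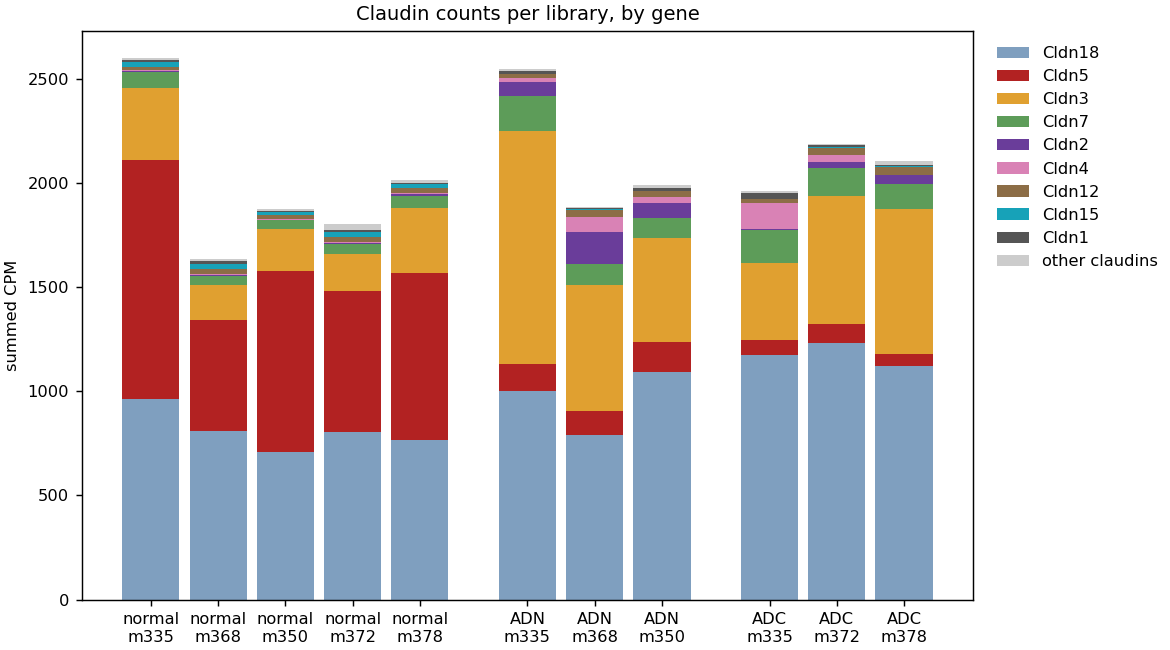
Summed CPM of the claudins in each library (stacked bars, 1 color per gene, on a linear axis; not divided by gene length). Cldn5 takes 32.5% to 46.1% of each normal lung bar and 2.93% to 7.12% of each tumor bar, while the bars reach 1637 to 2599 CPM and 1884 to 2548 CPM.

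Of the MARVEL-domain proteins, Marveld3 rose and the other 2 did not pass the test. Marveld3, which also has a role in signaling from the junction, lies at chr8:109947909-109962205 (minus strand). It measured 8.81, 8.98, 8.24, 10.3 and 10.6 CPM in normal lungs, 29.7, 48.2 and 16.6 CPM in ADN and 22.5, 24.6 and 30.9 CPM in ADC. The groups did not overlap, and normal lungs lay within a narrow range (9.39 CPM ± 1.02, SD, n = 5) compared with tumors (28.8 CPM ± 10.8, SD, n = 6). The log2 fold change was 1.56 ± 0.23 (SE; adjusted p = 0.00329, edgeR), and the call held without any 1 library or mouse (0.00106 to 0.0198). Marveld3 equaled 0.573% to 1.05% of the pan-epithelial sum in normal lungs and 0.804% to 1.59% in tumors, above the paired lung in 5 of 6. Marveld2 (tricellulin), the protein of corners where 3 cells meet, was 18, 19.4, 12.7, 14.4 and 15.2 CPM in normal lungs, 24.3, 21.4 and 23.6 CPM in ADN and 16.8, 27.6 and 19.8 CPM in ADC. Its log2 fold change was 0.49 ± 0.20 (adjusted p = 0.168, edgeR; 0.0376 without ADC m335). Occludin, Ocln, was 24.3, 31.8, 25, 30.2 and 32.7 CPM in normal lungs, 22.1, 10 and 37.9 CPM in ADN and 28.9, 26.9 and 20.8 CPM in ADC. The lowest of its libraries was ADN m368 and the highest ADN m350, so no direction was shared, and its log2 fold change was -0.33 ± 0.30 (95% interval -1.01 to 0.35).

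None of the 3 junctional adhesion molecules passed the test. F11r (JAM-A), found at epithelial and endothelial junctions, was 216, 200, 195, 181 and 189 CPM in normal lungs, 233, 258 and 236 CPM in ADN and 248, 249 and 227 CPM in ADC. Its groups did not overlap, but the difference was small, with a log2 fold change of 0.29 ± 0.15 (adjusted p = 0.263, edgeR). Tumors were all above all normal lungs also for Cldn3, Cldn7, Marveld3 and Tjp3; 3.36% of all tested genes showed this, and 7.89% showed the opposite, as Cldn5 and Cldn15 did. Jam2 (JAM-B), expressed in endothelium, was 39.5, 59.2, 66.8, 40.8 and 61.1 CPM in normal lungs, 41.3, 48 and 39.4 CPM in ADN and 23.3, 44.6 and 45.6 CPM in ADC. Its log2 fold change was -0.33 ± 0.20, while the endothelial list had a median of -1.99. Jam3 (JAM-C) was lower still in level, at 6.68 to 9.46 CPM in normal lungs and 3.79 to 9.87 CPM in tumors (log2 fold change -0.43 ± 0.27), and 36.2% of its exon bases lie in an antisense transcript.

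Of the 6 cytoplasmic scaffolds and adaptors, Tjp3 rose and none fell. Tjp3 (ZO-3), the ZO protein found mainly in epithelia, lies at chr10:81273188-81291581 (minus strand). It measured 39.3, 29.7, 29.2, 27.9 and 35.4 CPM in normal lungs, 50.1, 65.2 and 56.2 CPM in ADN and 51, 56.1 and 64.8 CPM in ADC. Every tumor was above every normal lung. Tumors had a log2 fold change of 0.83 ± 0.16 (SE; adjusted p = 0.0125, edgeR), and the call was lost without normal m350, m372 or m378, ADN m350, ADC m372 or ADC m378 (adjusted p 0.0519 to 0.062). Tjp3 relative to the summed pan-epithelial markers was lower in 6 of 6 tumors (1.44% to 3.33%) than in their own normal lungs (2.52% to 3.5%). Of its exon bases, 1.1% lie in Apba3 exons on the other strand, and Apba3 had a log2 fold change of 0.14 ± 0.24.

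Tjp1 (ZO-1), which is found in epithelia and endothelium, did not pass the test. Its level was 79.6, 134, 136, 119 and 137 CPM in normal lungs, 70.2, 80 and 80.6 CPM in ADN and 70.6, 90.2 and 75.1 CPM in ADC. It was below its paired lung in 6 of 6 tumors, with a log2 fold change of -0.57 ± 0.17 (adjusted p = 0.0636, edgeR). It passed without ADC m335 (0.0385), without the replicate block (0.019), with library totals (0.0193) and with DESeq2 (0.0114). Tjp1 equaled 1.13% to 2.97% of the endothelial sum in normal lungs and 4.77% to 7.34% in tumors.

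Cingulin, Cgn, which links the junction to actomyosin, was 53, 57.1, 61.2, 47.7 and 54.5 CPM in normal lungs, 52.9, 63.2 and 80.5 CPM in ADN and 27.8, 63.2 and 55.2 CPM in ADC. Its log2 fold change was 0.08 ± 0.21 and turned to -0.11 with library totals. Cgnl1 (paracingulin) was 100, 105, 96.3, 105 and 101 CPM in normal lungs, 143, 214 and 164 CPM in ADN and 69.1, 191 and 159 CPM in ADC. ADC m335 alone was below the normal lungs, and the log2 fold change of 0.63 ± 0.24 (adjusted p = 0.133, edgeR) passed without that library (0.81, adjusted p = 0.00439). Magi1, a large scaffold of junctions, was 32.5, 22.2, 30.2, 21.8 and 20.4 CPM in normal lungs, 50.7, 22.3 and 36.5 CPM in ADN and 22.8, 34.2 and 31.2 CPM in ADC, with a log2 fold change of 0.33 ± 0.23. ADC m335 was the lowest tumor for Cgn and Cgnl1, and among the 2 lowest for Magi1.

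Of the 3 polarity complex proteins, Patj rose, at the edge of the threshold. Patj, the Crumbs complex scaffold, lies at chr4:98395826-98719603 (plus strand). It measured 36.1, 38.8, 37.7, 38.5 and 39.9 CPM in normal lungs, 63.2, 83.4 and 58.6 CPM in ADN and 37.4, 70.3 and 54.8 CPM in ADC. The normal lungs differed little (38.2 CPM ± 1.39, SD, n = 5), 5 tumors were above all of them, and ADC m335 lay within their range. This was a log2 fold change of 0.69 ± 0.19 (SE; adjusted p = 0.04998, edgeR), and the call was lost when any 1 library other than ADC m335 was left out (adjusted p 0.0899 to 0.151), with library totals (0.102) and with no filter (0.063). Patj relative to the summed pan-epithelial markers was lower in 6 of 6 tumors (1.8% to 3.11%) than in their own normal lungs (2.35% to 4.02%). Pard3 (Par-3) was 43.5, 42.1, 42.4, 37.9 and 45.3 CPM in normal lungs, 55.2, 101 and 62.2 CPM in ADN and 22.8, 90.2 and 71.7 CPM in ADC. Here too ADC m335 was the exception, the only tumor below the normal lungs, and the log2 fold change was 0.64 ± 0.29 (adjusted p = 0.208, edgeR; 0.00875 without ADC m335). Pard6b (Par-6β) was 40, 45.8, 53.6, 42.3 and 46.2 CPM in normal lungs, 44.2, 53.3 and 48.3 CPM in ADN and 34.5, 51.1 and 44.6 CPM in ADC. Its log2 fold change of 0.05 ± 0.15 (95% interval -0.29 to 0.39) turned to -0.14 with library totals.

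**Figure D5:**
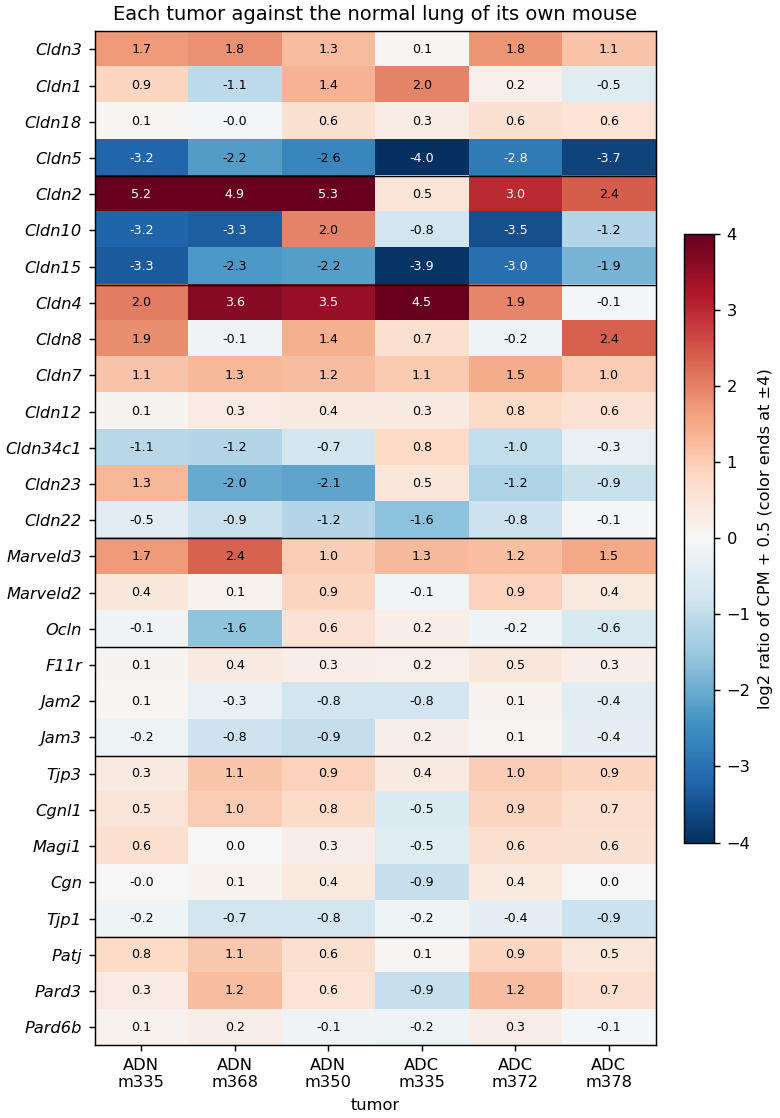
Log2 ratio of each tumor to the normal lung of its own mouse (CPM + 0.5) for 28 of the 29 tested genes, in rows by role; red is higher and blue lower in the tumor, and columns are the 3 ADN and 3 ADC tumors. The ADC tumor of mouse m335 has 0.51 for Cldn2 and 4.55 for Cldn4, against 5.17 and 2.04 in the ADN tumor of that mouse.

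The 18 members below the filter were Cldn6, Cldn9, Cldn11, Cldn13, Cldn14, Cldn16, Cldn17, Cldn19, Cldn20, Cldn24 and 8 Cldn34 genes. Their highest count in a single library was 25 or less, and 5 of the Cldn34 genes had 0 counts in all 11 libraries after rounding. Among them, Cldn11 is a claudin of myelin and testis, Cldn16 and Cldn19 act in the kidney, and Cldn14 in the inner ear. Cldn24 reached 18 counts in ADC m335, and Cldn11 reached 25 counts in ADN m350. With so few counts, these genes were not tested for a difference between groups in the main fit.

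The tumors of each tag were compared with normal lung in a fit with 3 groups. In ADN, 5 members rose (Cldn2, Cldn3, Cldn7, Marveld3 and Patj) and 2 fell (Cldn5 and Cldn15), against 2.58% and 4.66% of all genes (7.24% in either direction). In ADC, 3 rose (Cldn2, Cldn7 and Marveld3) and the same 2 fell, against 0.977% and 3.8% of all genes (4.78% in either direction). The comparisons share the normal lungs. Log2 fold changes in ADN and ADC were 5.72 ± 0.48 and 2.07 ± 0.48 for Cldn2, 1.76 ± 0.33 and 0.96 ± 0.35 for Cldn3, and 2.79 ± 1.02 and 2.87 ± 0.93 for Cldn4. They were 1.26 ± 0.21 and 1.20 ± 0.21 for Cldn7, 1.74 ± 0.29 and 1.38 ± 0.28 for Marveld3, and 0.92 ± 0.22 and 0.44 ± 0.23 for Patj. Cldn5 fell by 2.62 ± 0.31 in ADN and fell by 3.48 ± 0.32 in ADC, and Cldn15 fell by 2.69 ± 0.47 and fell by 3.12 ± 0.49. The adjusted p of Cldn2 in ADC was 0.0497 (edgeR). The count of members in ADN was 2 without ADN m368, 3 without normal m368 and 4 without normal m350 or ADN m350. In that order, 2.62%, 2.67%, 1.69% and 2.04% of all genes tested passed in these fits. Without ADN m335 no member and no gene passed (edgeR; 12 members and 2316 genes at an unadjusted p under 0.05). The count in ADC was 1 without normal m372 or ADC m372, 2 without normal m378 or ADC m378 and 3 without normal m335 or ADN m335. Of all genes tested, 2.42%, 2.31%, 0.453%, 0.47%, 2.92% and 3.3% passed in these fits, in that order.

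ADC and ADN were compared with each other in the fit with 3 groups. Only mouse m335 had both tags, so for the other mice the comparison runs through their normal lungs. No member passed the test (edgeR), with 1 gene of all tested (0.00634%) past it. At an unadjusted p under 0.05 there were 1 member, Cldn2, and 1048 genes, and DESeq2 called 1 member, again Cldn2 (adjusted p = 5.8e-08), of 136 genes. Cldn2 was 63.6 to 151 CPM in ADN and 2.02 to 41.8 CPM in ADC. Cldn5 was 113 to 142 CPM in ADN and 61.6 to 94.2 CPM in ADC (adjusted p = 0.743, edgeR). Cldn18 was 791 to 1095 and 1120 to 1231 CPM (adjusted p = 0.874, edgeR). These ranges did not overlap between the tags. The share of all genes without such overlap was not counted, so no difference between the tags is read from it. The difference of Cldn2, ADC minus ADN, was -3.64 ± 0.60 on the log2 scale (95% interval -5.03 to -2.25), with an unadjusted p of 0.000288 and an adjusted p of 0.357 (edgeR). Over the alternatives in edgeR the adjusted p was 0.128 to 0.984 and the difference -1.96 (without the replicate block) to -4.11, and it was -2.67 without ADC m335. Within mouse m335, the only mouse with both tags, ADN against ADC read 63.6 against 2.02 CPM for Cldn2, 1119 against 369 CPM for Cldn3 and 21.8 against 126 CPM for Cldn4. The 95% intervals of the difference were -0.67 to 0.54 for Cldn7, -1.19 to 0.47 for Marveld3, -1.73 to 0.01 for Cldn5 and -1.79 to 0.94 for Cldn15, and differences between the tags within these intervals remain possible.

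A further 4 lists of other junction genes were read beside the members, in tumors against normal lungs, where 3.45% of all genes rose and 7.66% fell. Of 12 adherens junction genes 3 rose and 1 fell: Cdh1 (E-cadherin, from a mean of 227 CPM ± 26.3 to 447 CPM ± 97.7, SD), Nectin2 (log2 fold change 1.33 ± 0.25) and Nectin4 (1.30 ± 0.19) rose, and Cdh5 (the cadherin of endothelium, -2.46 ± 0.27) fell. Of 20 further tight junction proteins, 4 rose and 2 fell. Lsr (0.92 ± 0.19) and Ildr1 (1.09 ± 0.26), both angulins that recruit tricellulin, rose with Igsf5 (JAM-4, 1.09 ± 0.24) and the actin regulator Vasp (1.06 ± 0.17). Mpdz (MUPP1, a relative of Patj, -2.23 ± 0.32) and Amotl2 (an angiomotin, from 135 CPM ± 27.4 to 67.9 CPM ± 17.9, SD) fell. Of 10 polarity complex partners none rose and 1 fell, Pard6g (-2.11 ± 0.23), a Par-6 form like Pard6b.

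Of 20 regulators of epithelial junction genes 18 were tested, and 5 rose and 3 fell. Those that rose were the transcription factors Grhl2 (1.42 ± 0.29), Foxa2 (1.25 ± 0.26), Foxa1 (1.08 ± 0.23) and Elf3 (0.64 ± 0.14) and the protease matriptase, St14 (1.25 ± 0.17). Those that fell were Zeb1 (-1.67 ± 0.18), Zeb2 (-1.30 ± 0.19) and Snai2 (-1.06 ± 0.27), repressors known for acting on Cdh1 and on claudin genes. Grhl2 measured 12.8 CPM ± 1.54 (SD, n = 5) in normal lungs and 33.8 CPM ± 11.4 (SD, n = 6) in tumors, and Zeb1 measured 53.7 CPM ± 11.1 and 16.4 CPM ± 4.62. Cdh1, Grhl2 and Elf3 are also on the pan-epithelial list, Cdh5 and Esam (a further tight junction protein) on the endothelial list and Cdx2 (a regulator) on the gastric and intestinal list, so these counts are not independent of the marker counts above. Endothelial markers fell (15 of 17), and some fibroblast (4 of 9) and smooth muscle markers (3 of 9) did too. The part of these cell types in the change of Zeb1, Zeb2 and Snai2 was not tested.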

How the data were processed

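Per the labels' protocols, poly-A libraries were made from RNA of integrity number 7 or more and read on an Ion Proton. STAR 2.4.1d, Bowtie2 2.1.0 and Partek are named with build mm10 (GRCm38), per the submitters' processing notes. Which step each served, which annotation was used and whether strand was counted is not given in the sources used here. The deposited values are the authors' expected counts, 1 row per transcript, not normalized.

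Rows were summed by gene symbol and rounded to whole numbers (78.4% to 86.2% of gene sums per library were whole within 0.01). Of 24515 genes 15764 passed filterByExpr, with 99.97% of counts. Libraries were scaled by TMM (factors 0.91 to 1.108) and fitted with edgeR 4.0.16 (robust quasi-likelihood, R 4.3.3), with the mouse as a fixed block. Tumor was compared with normal in 1 fit and the 3 groups in another. Tests were two-sided, with Benjamini-Hochberg adjustment over all tested genes and a threshold of 0.05. SEs came from the F statistic, and 95% intervals from the t quantile at its degrees of freedom. The fit was also run on simulated counts. These had no differences between mice and no outlying tumor, so that run does not measure its accuracy on the present libraries. Positions are from the deposited table and the GENCODE M21 annotation (GRCm38), and promoters from RefSeq. All 47 members had a RefSeq symbol.

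Pairing follows the mouse identifiers in the labels. Deviations from the group means correlated between tumor and own normal lung at 0.224, 0.102, 0.00417, -0.0381, -0.0231 and 0.241, with the paired lung the closest of the 5 normal lungs for 2 of 6 tumors.

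The members and all lists were chosen with earlier results of these data known. Of the 29 tested members, 28 are named and 1 is not reported here, though counts over the members include it. Members past the threshold or with a mean of at least 10 CPM are given per library. Pathway genes past the threshold in tumors are named. Cell type lists were endothelial, pan-epithelial, alveolar type 1 (4 of 10 lower in tumors), alveolar type 2 (4 of 10 higher), club (1 of 8 lower), ciliated (1 of 9 lower), mesothelial, fibroblast, smooth muscle and pericyte, oligodendrocyte and Schwann cell (0 of 5 changed), keratinocyte and basal cell (0 of 6), gastric and intestinal epithelium (1 of 6 higher), skeletal muscle (5 of 6 lower), fat (3 of 6 lower), thymus and T cell (1 of 6 lower), B cell (0 of 5), erythrocyte (5 of 5 lower) and macrophage and monocyte (0 of 7). The alternatives were no replicate block, library totals, DESeq2 1.42.0, no filter, a mean of at least 1 CPM, the Rn45s row left out (7.29% to 19.2% of counts), and leaving out each library or mouse.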

Additional observations from a re-analysis of the deposited data

Results flagged for a closer look

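In the levels of 28 tested members, 56 groups (5 normal lungs or 6 tumors) were searched for a library far from all others, and 5 had one. The nominal chance rate is about 1 in 20, but the same 11 libraries recur for every member, so the groups are not independent. Cldn10 was 15.1 CPM in normal m372, where the next normal lung had 5.34 CPM, and 9.07 CPM in ADN m350, where the next tumor had 2.39 CPM. Both libraries had the highest summed club cell markers of their group, and the part of club cells was not tested. Cldn8 was 11.6 CPM in ADC m378, with the next tumor at 3.74 CPM. Cldn34c1 was 3.77 CPM in ADC m335, with the next tumor at 1.7 CPM. Jam2 was lowest in the same tumor, at 23.3 CPM, with the next at 39.4 CPM.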

How the results depend on the processing

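Without the replicate block, 11 members passed in tumors against normal lungs (Tjp1 was among those added), 10 in ADN, 8 in ADC and 0 in ADC against ADN. With DESeq2 these counts were 13, 12, 8 and 1, and DESeq2 passed 3349, 3003, 1861 and 136 of all genes, against 1752, 1141, 753 and 1 in edgeR. Leaving out 1 library or mouse gave 4 to 15 members in tumors, 0 to 10 in ADN, 1 to 5 in ADC and 0 in each case for ADC against ADN. Over all genes the count for tumors was then 911 (without normal m378) to 3396 (without ADC m335), and it was 1030 without normal m335, with fewer samples in each of these fits. For ADN it was 0 (without ADN m335) to 1998 (without ADC m335), with 2316 genes at an unadjusted p under 0.05 in edgeR without ADN m335, and for ADC it was 71 (without normal m378) to 1071 (without ADC m335). Without the block the counts over all genes were 2257 in tumors, 1836 in ADN and 1517 in ADC. Cldn5, Cldn15, Cldn7 and Marveld3 kept their call in tumors under every alternative run. In tumors, library totals took away the calls of Cldn4 and Patj and added Tjp1, no filter took away Cldn4 and Patj, and a mean of at least 1 CPM and leaving out Rn45s changed no call among the members they tested. In ADN, library totals and no filter each took away Patj, and in ADC library totals and a mean of at least 1 CPM each took away Cldn2. Direction turned for Cgn (-0.11 with library totals, -0.00 to 0.29 on leaving out 1 library or mouse), for Pard6b (-0.14 with library totals, -0.01 to 0.14 on leaving 1 out), and for the A2 share of Cldn18 (1.53 without mouse m350 and 1.91 without mouse m372, from -7.17 to 1.91 percentage points over the 5 mice left out); the cause was not tested. The depth left 18 members untested, and the levels of Cldn22, Cldn23, Cldn34c1, Cldn8 and Cldn10 rest on few counts.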
